A study of Oreolalax rhodostigmatus with 13 samples.

Results

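Transcripts of 6 short-term exposed tadpoles of the red-spotted toothed toad *Oreolalax rhodostigmatus*, killed after 4 h of light, were compared with those of 4 control tadpoles taken straight from the dark zone of a cave. Transcripts of the whole series were assembled without a genome into 249088 unigenes, and the comparison covers the 38864 of them that were above 0 in all 13 libraries, so that each was measured in every tadpole and could move in both directions. The short-term exposed group (4 h) and the control group (dark) are wild, untreated larvae of Gosner stage 25 from 1 pool, and another 3 long-term exposed tadpoles (30 h) entered the fit and are given for their levels. Each library is 1 tadpole. Skin of the back, liver, eyeballs and a piece of tail were pooled for each tadpole in the methods, whereas the labels leave out the tail, so a value is a mixture of tissues. Control tadpoles were killed at collection, early in the morning, and those exposed had been held in a cage at the cave entrance. Light, hour of the day and time in the cage therefore cannot be told apart.

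Transparent cave tadpoles of this species darken in light. In amphibians, darkening can come from moving existing pigment granules or from making new melanin, which starts with tyrosinase in melanocytes. Light also reaches cells in other ways, since ultraviolet light damages DNA, which photolyases repair, and handling or damage can set off immediate-early and inflammatory genes. Levels are given as FPKM, reads per unigene scaled by the authors to its length and to the library. Differences are on log2(FPKM + 0.1), which understates the change of unigenes with low levels.

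The libraries differed in ways that touch the comparison. A set of 23 unnamed unigenes, picked after their values were seen, held 27.2% of all FPKM in short-term exposed replicate 1 and 8.75% in replicate 5, against at most 0.0778% in the other 4 short-term exposed and at most 0.159% in the 4 control libraries. Replicate 5 also listed the fewest unigenes above 0, 91929, where the other short-term exposed libraries listed 122575 to 136138 and the control libraries 112990 to 134725. Summed FPKM of the 19 unigenes named as hepatocyte proteins was 573 and 634 in short-term exposed replicates 3 and 4, 1466 to 3657 in the other 4, and 1197 to 2824 in the control libraries. Albumin and a pentraxin made up nearly all of this sum, and the pentraxin set replicates 3 and 4 apart, since albumin was as low in replicate 1. The mean log2 level over the list was -0.25 and -0.68 in replicates 3 and 4 and 0.01 to 0.61 in the other 4, against -0.55 to 0.25 in the control libraries, so by this measure replicate 3 lay inside the control range. The liver list had 3 to 7 members at 0 in short-term exposed and 4 to 9 at 0 in control libraries. The mean log2 level of 426 unigenes named by a mammalian best hit ranged over -1.76 to -1.34 for replicates 2 to 6 of the short-term exposed group and was -2.98 for its replicate 1, against -3.07 to -2.61 in the control libraries. Only 13 of the 426 were above 0 in every library, and the control values lie close to that of 0 FPKM on this scale. Names came in part from the study's lists, chosen at least in part on these samples, so this level is not independent of the groups. In the 30 h libraries the hepatocyte sum was 10354.5 to 13402.3. Sums of 22 skeletal muscle and 20 leukocyte unigenes were 136 to 220 and 104 to 153 there, against 40 to 73.5 and 15.5 to 26.2 in control libraries. That of 9 epidermis unigenes overlapped, at 20 to 46.9 against 14 to 42.7. The part of this in the 30 h levels given below was not tested. The part of the differences between libraries in the results below was not tested beyond fits with covariates, but the counts are given with and without the libraries concerned.

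After 4 h of light, 83 unigenes were higher (0.214% of those tested) and 28 were lower (0.072%) than in the dark (limma over the 3 groups, adjusted p under 0.05). The balance upward depended on the unigenes tested and on the fit. Testing unigenes with 0.3 FPKM or more in 3 or more libraries gave 60 higher and 59 lower, and no filter gave 47 and 49. Untransformed FPKM with an unmoderated least-squares test gave 0 and 5 (1120 and 1688 at an unadjusted p under 0.05). With the level of unigenes with mammalian best hits as a covariate there were 2 and 9, of which 1 and 2 were among the 83 and 28. That level itself differed between the groups in all but short-term exposed replicate 1, and lay at 0.19 to 1.12 in the 30 h libraries. Adjusting for it can therefore take out part of the group difference, and how much was not tested. The 83 higher unigenes differed by 1.89 to 5.92 on the log2 scale, with a median of 2.76. The 28 lower ones differed by -1.79 to -6.07, with a median of -2.91. None of the differences called was below 1 on this scale, and 9 of the higher and 7 of the lower unigenes exceeded 4. All 6 short-term exposed libraries lay above all 4 control libraries for 80 of the 83 higher unigenes, and below them for 28 of the 28 lower unigenes. This separation largely follows from the call, which used the same values, and is no further support. Over all unigenes tested, the groups did not overlap for 0.741% in the higher and 1.01% in the lower direction. The median difference of all 38864 was -0.08, and at an unadjusted p under 0.05, 1417 unigenes (3.65%) were higher and 1919 (4.94%) lower.

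**Figure D1:**
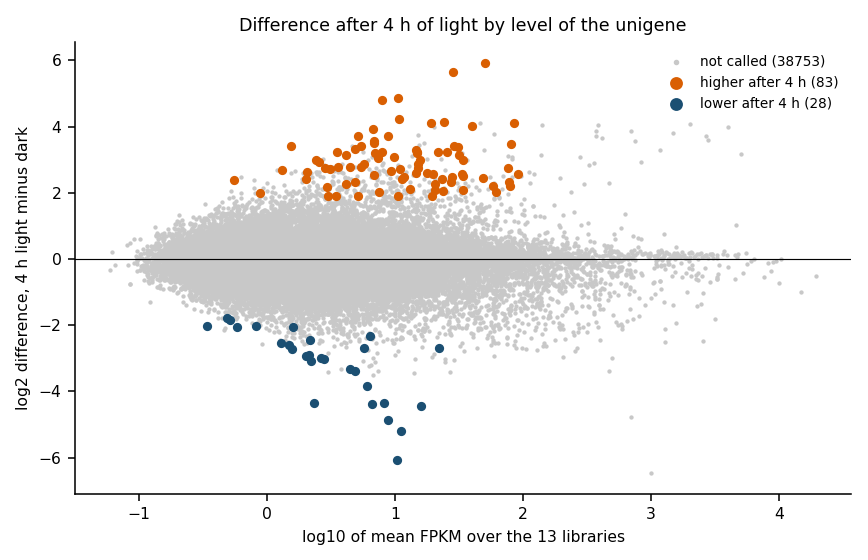
Log2 difference between short-term exposed (4 h light) and control (dark) tadpoles against log10 of the mean FPKM over 13 libraries, 1 point per unigene, with those called higher in orange (83), lower in blue (28) and the rest in grey. The called unigenes lie at low and middle levels, and the widely scattered grey points at the right, with mean levels of 100 FPKM and more, hold no call.

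Level was taken as the mean over all 13 libraries, which includes the exposed values that made the calls. By this measure the 83 higher unigenes were mostly of middle level, and the 28 lower ones of lower level. In the dark libraries alone the order was the reverse. Medians there were 1.66 to 3.71 FPKM for the higher set and 4.96 to 6.49 FPKM for the lower set. The median of their mean FPKM was 11.4 for those called higher and 2.5 for those called lower, beside 2.63 for all tested. The share called higher was 0.888% between 30 and 100 FPKM, 0.629% between 10 and 30 and 0.021% under 1 FPKM, while the share called lower was at most 0.0971% in any band. Called unigenes are assembled transcripts and not genes: 20 of the 83 and 2 of the 28 had another unigene called in the same direction within 5 numbers of their own in the assembly, and whether these are pieces of 1 gene was not tested.

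The largest difference upward was in unigene Cluster-29057.40598, which has no name in the tables held. Its level was 44.69 FPKM at the lowest, 93.6 at the median and 191 at the highest of the short-term exposed tadpoles, against 0.87, 0.81, 0.91 and 4.92 FPKM in the control tadpoles. Every exposed tadpole was far above every control, and control replicate 4 was above the other controls. The log2 difference was 5.92 with a standard error of 0.55 (limma adjusted p = 0.000198; exact permutation p = 0.00476, two-sided, the smallest that 6 against 4 libraries can give). The unigene was chosen as the largest difference on the same values, so its unadjusted permutation p is no further support. This smallest p was shared by 73 of the unigenes called higher and 25 of those called lower. After 30 h of light Cluster-29057.40598 had 11.31, 24.31 and 6.81 FPKM, between the dark and the 4 h values. Among the 29 alternative fits on the log scale, the call was lost in 1, that with the covariate of mammalian best hits (limma adjusted p = 0.0524).

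Cluster-29057.98131, also unnamed, came next. It had 22.11 FPKM at the lowest, 40.3 at the median and 139.67 at the highest in the short-term exposed libraries, against 3.05, 0.24, 0.98 and 0.41 FPKM in the control libraries. The groups did not overlap, and the log2 difference was 5.65 with a standard error of 0.89 (limma adjusted p = 0.0106). The 30 h tadpoles were not alike in it, with 33.5 FPKM in replicate 1 and 0.6 and 2.27 FPKM in the others. The call was lost in 4 of the 29 alternative fits on the log scale: without control replicate 2 (limma adjusted p = 0.0661), without short-term exposed replicates 3 and 4 (0.0618) or 1, 3 and 4 (0.135), and with the covariate of mammalian best hits (0.152).

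The largest difference downward was in Cluster-29057.102256, which was near 0 after 4 h. It had 0.14 FPKM at the lowest, 0.26 at the median and 1.31 at the highest in the short-term exposed tadpoles, against 40.31, 39.99, 25.88 and 20.1 FPKM in the controls. The log2 difference was -6.07 with a standard error of 0.51 (limma adjusted p = 0.000124; exact permutation p = 0.00476). This unigene was likewise chosen on the same values, so its permutation p is no further support. At 30 h its level was 2.44, 1.27 and 2.75 FPKM, still below every dark value.

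Cluster-29057.102426 had the same form. Its level was 0.1 FPKM at the lowest, 0.87 at the median and 3.57 at the highest in the short-term exposed tadpoles, against 42, 34.34, 22.46 and 24.94 FPKM in the controls, and 4.87, 3.08 and 6.95 FPKM after 30 h. The log2 difference was -5.18 with a standard error of 0.65 (limma adjusted p = 0.00219), and the call was lost with the covariate of mammalian best hits (limma adjusted p = 0.117). Neither of these strongly lowered unigenes has a name in the tables held.

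**Figure D2:**
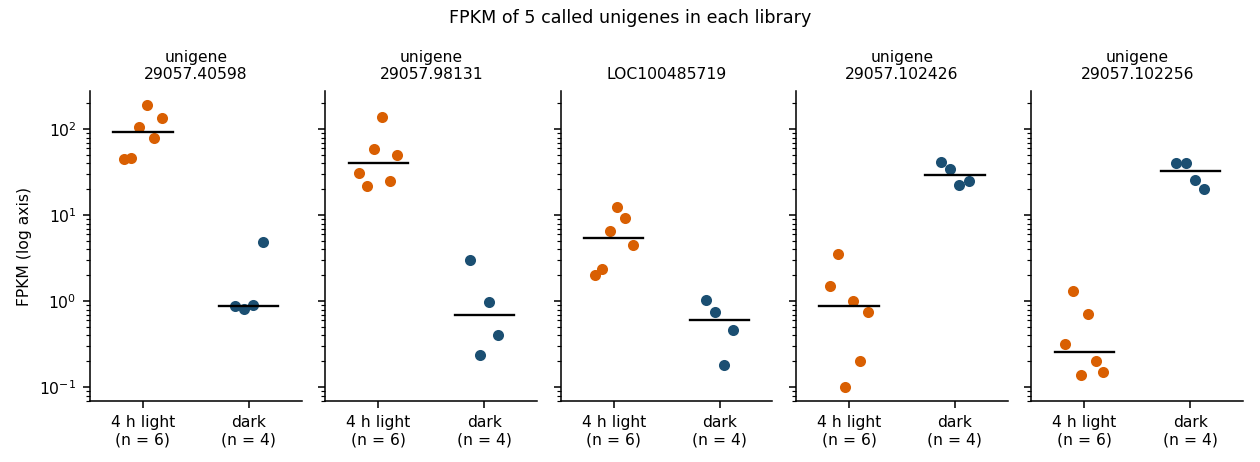
FPKM on a log axis of the pair of unigenes with the largest differences in each direction and of the 1 called unigene with a name (LOC100485719), with 1 point per short-term exposed (4 h light) or control (dark) library and a bar at the group median. In each panel the 6 exposed libraries lie wholly on one side of the 4 control libraries, which largely follows from the call on the same values.

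A name was held for 263 of the 38864 unigenes tested (0.677%), and for 1 of the 111 called. This one, Cluster-29057.35314, has as its best hit an uncharacterized *Xenopus tropicalis* protein, LOC100485719 isoform X1, whose function is not given by its name. It had 2.03 FPKM at the lowest, 5.47 at the median and 12.4 at the highest in the short-term exposed tadpoles, against 1.02, 0.74, 0.18 and 0.46 FPKM in the controls, and 25.41, 11.84 and 19.78 FPKM after 30 h. Its groups did not overlap, as for most called unigenes, and the log2 difference was 3.06 with a standard error of 0.54 (limma adjusted p = 0.0225). The unigene was on the study's lists of unigenes used in its analysis and figures. Those lists were chosen at least in part on these samples, so the direction of this unigene is not independent evidence. The call was lost in 13 of the 29 alternative fits run on the log scale, among them those without control replicate 2, 3 or 4 and those without short-term exposed replicate 3 or 6 (limma adjusted p of 0.0505 to 0.124).

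The called unigenes also had levels in the 30 h tadpoles, which entered the test only through the spread between replicates and the filter on 0. Among the 83 higher unigenes, the mean of the 3 long-term exposed tadpoles lay inside the range of the dark values for 32, between the dark and the 4 h values for 29, at or above the lowest 4 h value for 19 and below the dark values for 3. Among the 28 lower unigenes, it lay inside the dark range for 4, between the dark and 4 h values for 13, at or below the highest 4 h value for 8 and above the dark values for 3. These positions are a description with no test, since the short-term exposed values were those that made the call.

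The tadpoles of the short-term exposed group differed among themselves in the levels of the called unigenes. The median of the 83 higher unigenes was 25.2, 24.9 and 24.1 FPKM in short-term exposed replicates 3, 4 and 6, and 12.6, 10.9 and 12.8 FPKM in replicates 1, 2 and 5, against 1.66, 1.77, 2.1 and 3.71 FPKM in the control tadpoles. Replicates 3 and 4 together held the highest of the 6 exposed values for 60 of the 83 unigenes, and replicates 1, 2 and 5 the lowest for 80. Medians over all unigenes tested also differed. They were 2.75, 2.63 and 2.39 FPKM in replicates 3, 4 and 6 and 1.96, 2.45 and 1.2 FPKM in replicates 1, 2 and 5. How often these replicates ranked highest or lowest over all unigenes tested was not counted. Summed FPKM of the 22 skeletal muscle unigenes moved with the spread of the higher unigenes. It was 94.2, 117 and 59.7 in replicates 3, 4 and 6 and 32.8, 40.1 and 31.5 in replicates 1, 2 and 5. The control tadpoles had 62.6, 40, 41.2 and 73.5. Replicates 3 and 4 also had the lowest liver sums. Fits with the mean level of the hepatocyte or the skeletal muscle list as a covariate called all 83 and 28 again. The part of either tissue in the result was not tested further. Without short-term exposed replicates 3 and 4, 33 unigenes were higher and 17 lower, of which 31 and 11 were among the 83 and 28. The median of the 28 lower unigenes was 0.42, 0.81, 0.42, 0.69, 0.24 and 0.47 FPKM in short-term exposed replicates 1 to 6, against 6.49, 4.99, 4.96 and 5.9 FPKM in the control tadpoles. The groups did not overlap in it, which largely follows from the call.

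**Figure D3:**
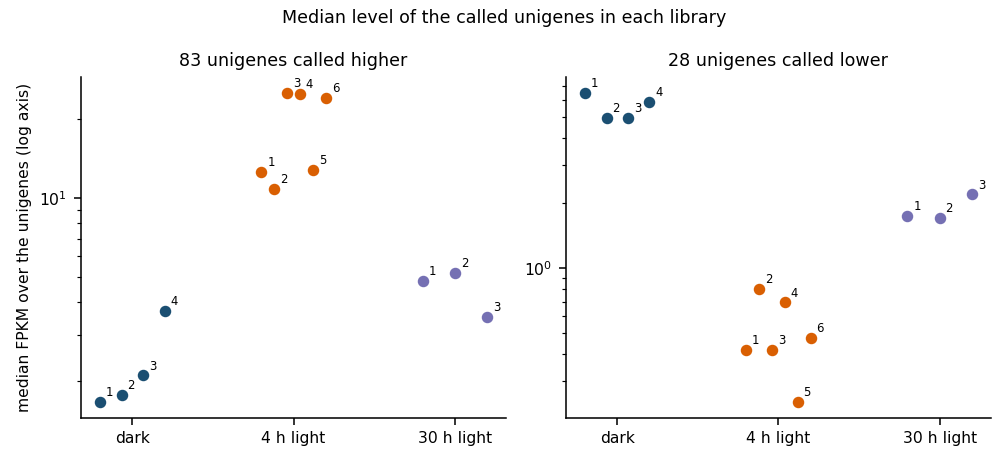
Median FPKM (log axis) of the 83 unigenes called higher and of the 28 called lower in each control (dark), short-term exposed (4 h) and long-term exposed (30 h) library, with the replicate number beside each point. For the higher set, 4 h replicates 3, 4 and 6 lie near 25 FPKM and the other 3 between 10.9 and 12.8, and dark replicate 4 lies above the other dark libraries.

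Among the controls, replicate 4 was most often nearest to the exposed tadpoles in the higher unigenes. It had the highest of the 4 dark values for 52 of the 83 higher unigenes, and also the highest muscle and the lowest liver sum of the controls. Its median over all unigenes tested was likewise the highest, at 2.89 FPKM beside 1.84 to 2.51 FPKM in the other controls. Without control replicate 4, 112 unigenes were higher and 14 lower. In 34 of the 40 that were added upward, the value of this control lay inside the range of the exposed tadpoles. That overlap largely follows from the choice, since these unigenes were called only when this control was left out. An abundant example, chosen after its values were seen, is the unnamed Cluster-29057.107283, with 366 FPKM at the lowest, 779 at the median and 3864 at the highest in short-term exposed tadpoles, against 27.91, 11.75 and 64.83 FPKM in control replicates 1 to 3 and 870.83 FPKM in control replicate 4. With all controls its log2 difference was 3.87 with a standard error of 0.91 (limma adjusted p = 0.117), and without control replicate 4 it was 5.11 with a standard error of 0.66 (limma adjusted p = 0.00285). It had 27.51, 55.09 and 40.71 FPKM in the 30 h tadpoles, as low as in control replicates 1 to 3.

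No unigene with a mean level of 100 FPKM or more was called by limma. At an unadjusted p under 0.05, 19 of the 992 such unigenes were higher and 56 lower, beside 3.65% and 4.94% of all unigenes tested. With 0.214% and 0.072% of all unigenes called higher and lower, 992 unigenes would hold few calls. At the 0.888% called higher between 30 and 100 FPKM they would hold more, and the lack of calls at this level was not tested further. Of the 992, 26 had a log2 difference of at least 2 and 37 one of at most -2. In 33 of those 37, short-term exposed replicates 3 and 4 held the lowest values of the 10 tadpoles. How often they did so over the 992, or over all unigenes tested, was not counted. Of the 23 unigenes that dominated short-term exposed replicates 1 and 5, 15 were tested, and these had log2 differences between 2.28 and 4.07 without any call (lowest limma adjusted p = 0.679). Without replicates 1 and 5 together, 132 unigenes were higher and 16 lower, of which 79 and 10 were among the 83 and 28.

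Without short-term exposed replicate 1, over the same unigenes, 118 were higher (0.304%) and 27 lower (0.0695%). Of the 83 higher unigenes 77 were called again, and of the 28 lower ones 19, with 41 and 8 that had not been called with all tadpoles. The median difference of all unigenes tested was -0.04 in this fit. The top 4 unigenes kept differences of 6.12, 5.75, -6.05 and -5.37, with limma adjusted p of 0.000317, 0.0208, 0.000297 and 0.00305. LOC100485719 differed by 3.31 (limma adjusted p = 0.0135) and was again the one called unigene with a name. Of the called unigenes, 29 of the 83 and 8 of the 28 were called in every fit that left out 1 of the 13 libraries. Several single libraries moved a count by more than 1.5 times. Without control replicate 1, 2 or 3, the counts were 43, 30 and 41 higher and 9, 10 and 11 lower. Without short-term exposed replicate 3, 4 or 6 they were 47, 54 and 51 higher and 15, 17 and 18 lower, and without replicate 2 or 5 they were 102 and 100 higher and 44 and 18 lower. Leaving out long-term exposed replicate 1, 2 or 3, which bear only on the spread and not on the difference, gave 66, 62 and 66 higher and 17, 13 and 15 lower.

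**Figure D4:**
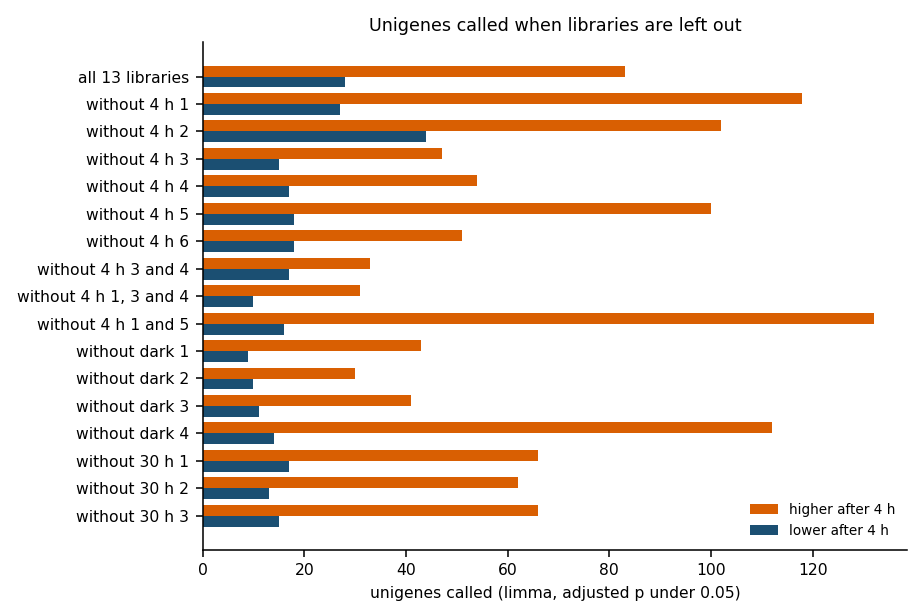
Unigenes called higher (orange) and lower (blue) after 4 h of light with all 13 libraries and with the named 4 h, dark or 30 h libraries left out. The number called higher runs from 30 without control replicate 2 to 132 without short-term exposed replicates 1 and 5, beside 83 with all libraries. With 1 library left out, the highest is 118, without short-term exposed replicate 1.

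The named unigenes were read by lists of pigment, light, growth, tissue and immune functions. The 19 lists held 104 distinct tested unigenes, and none of them was called higher or lower by limma. With 0.214% and 0.072% of all unigenes called higher and lower, a list of this size would hold few calls or none, so the count says little about these functions. At an unadjusted p under 0.05, 3 were higher and 7 lower, beside 3.65% and 4.94% of all unigenes tested, and the groups did not overlap for 1, in the lower direction, beside 1.01%. The median log2 difference of the 104 was -0.07, beside -0.08 for all unigenes tested. Names are best protein hits in other species.

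**Figure D5:**
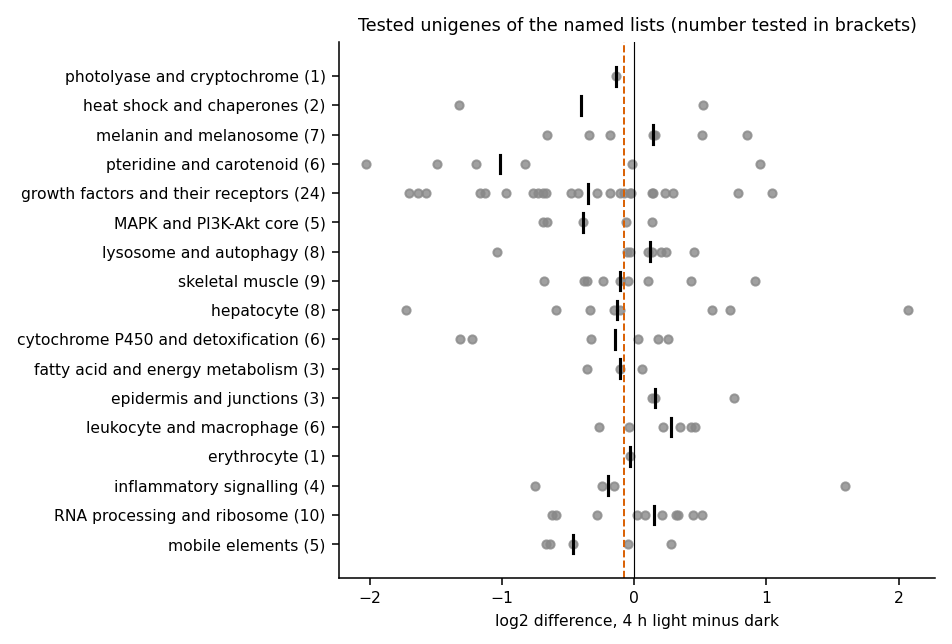
Log2 difference (short-term exposed minus control) of each tested unigene in the named lists (grey points), with the list median as a black bar and the median of all 38864 unigenes tested as a dashed orange line. The members of most lists lie on both sides of 0, and 5 of the 6 of the pteridine and carotenoid list lie below it.

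Pigment genes were measured in 2 lists. Of 48 named melanin and melanosome unigenes, 7 were tested. The rest were not above 0 in every library, so any that were off in the dark are outside this comparison. The 7 therefore do not speak for the list. All 7 tested melanin and melanosome unigenes were on the study's lists of unigenes used in its analysis and figures. Of the 7, 4 lay above 0 and 3 below, with a median of 0.14, and none had an unadjusted p under 0.05. A tyrosinase unigene was low in both groups, at 0.22 to 1.06 FPKM in short-term exposed tadpoles against 0.18 to 0.52 FPKM in controls. Its log2 difference was 0.51 with a standard error of 0.41 (limma adjusted p = 0.803), and after 30 h it had 1.25, 2.42 and 2.76 FPKM. Premelanosome protein, the scaffold on which melanosomes deposit pigment, had 1.97 FPKM at the lowest, 3.67 at the median and 8.05 at the highest in short-term exposed tadpoles, against 2.53, 2.15, 0.89 and 4.12 FPKM in controls. The groups overlapped, at a log2 difference of 0.86 with a standard error of 0.50 (limma adjusted p = 0.682). Transmembrane glycoprotein NMB, a melanosome and macrophage membrane protein, had 3.99, 8.87 and 12.95 FPKM as the lowest, median and highest short-term exposed values, against 16.64, 6.78, 19.37 and 14.42 FPKM in controls, with a log2 difference of -0.66 and a standard error of 0.41 (limma adjusted p = 0.71). At 30 h, in libraries that also differed in tissue markers, this unigene had 29.5, 61.8 and 80.84 FPKM and premelanosome protein 7.71, 18.79 and 18.79 FPKM. No unigene of the list of hormones and receptors of pigment dispersion was above 0 in every library, so none of its 8 named members was tested.

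Of 12 named unigenes of yellow and red pigment enzymes, 6 were tested, with a median log2 difference of -1.02. Of the 6, 5 lay below 0, and 1 of these had an unadjusted p under 0.05, beside 4.94% of all unigenes tested. Dihydropteridine reductase, which regenerates tetrahydrobiopterin, had 81.88 FPKM at the lowest, 294 at the median and 582 at the highest in short-term exposed tadpoles, against 351.38, 482.82, 652.54 and 321.7 FPKM in controls (log2 difference -0.83, standard error 0.52, limma adjusted p = 0.716). Its low values, 90.86 and 81.88 FPKM, were those of replicates 3 and 4, the libraries with the least pentraxin. A beta-carotene 9',10'-oxygenase, which cleaves carotenoids, likewise had 4.13 and 4.72 FPKM in these 2 tadpoles and 18.46 to 32.4 FPKM in the other 4, against 39.34, 27.77, 56.68 and 19.52 FPKM in controls (log2 difference -1.20, standard error 0.58, limma adjusted p = 0.595). Without replicates 3 and 4 the differences of these unigenes were -0.080 and -0.36, and the oxygenase stayed below 0 in every alternative fit.

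Of the light and stress lists, few members could be tested. A photolyase-like unigene, the enzyme family that splits ultraviolet lesions of DNA with the energy of light, had 1.95 FPKM at the lowest, 3.79 at the median and 4.78 at the highest in short-term exposed tadpoles, against 4.52, 2.93, 3.46 and 4.23 FPKM in controls (log2 difference -0.14, standard error 0.35, limma adjusted p = 0.955). The groups overlapped almost fully, and after 30 h it had 6.18, 12.43 and 10.14 FPKM. The delta subunit of the TCP1 chaperonin, which folds actin and tubulin, had 85, 98.8 and 129 FPKM as the lowest, median and highest short-term exposed values, against 57.9, 51.3, 83.09 and 100.15 FPKM in controls (log2 difference 0.52, standard error 0.25, limma adjusted p = 0.603). CHIP, a ubiquitin ligase that works with Hsp70, was scattered between 0.27 and 15.93 FPKM in short-term exposed tadpoles, against 6.67 to 13.18 FPKM in controls.

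Of 164 named unigenes of the growth factor list, 24 were above 0 in every library and were tested. Of the 24, 6 lay above 0 and 18 below, with a median of -0.35. Of these, 22 were on the study's lists of unigenes used in its analysis and figures. Among all 24, at an unadjusted p under 0.05, 1 was higher and 5 lower, beside 3.65% and 4.94% of all unigenes tested. Some of the 24 share a name, and whether these are pieces of 1 gene was not tested. Ephrin-A3, a membrane-anchored ligand of Eph receptors, was the one list member whose groups did not overlap. It had 0.45 FPKM at the lowest, 0.68 at the median and 0.93 at the highest in short-term exposed tadpoles, against 1.52, 1.6, 4.02 and 2.54 FPKM in controls, and 11, 2.14 and 13.7 FPKM after 30 h. Its log2 difference was -1.63 with a standard error of 0.49 (limma adjusted p = 0.273). The fibroblast growth factor receptor 4 unigene Cluster-29057.118559 had 3.23 to 7.04 FPKM in short-term exposed replicates 3 to 6 but 18.01 and 19.31 FPKM in replicates 1 and 2, against 16.72, 18.11, 26.58 and 38.48 FPKM in controls (log2 difference -1.71, standard error 0.55, limma adjusted p = 0.335). Another unigene of this name, Cluster-29057.118555, had a log2 difference of -1.58 with a standard error of 0.56 (limma adjusted p = 0.414), with overlapping groups. GRB7, an adaptor of receptor tyrosine kinases, had 7.13, 17.2 and 22.4 FPKM as the lowest, median and highest short-term exposed values, against 7.73, 6.23, 5.68 and 9.62 FPKM in controls (log2 difference 1.04, standard error 0.34, limma adjusted p = 0.357).

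Among signalling genes, suppressor of cytokine signaling 3 (SOCS3), a feedback inhibitor of JAK-STAT signalling induced by cytokines, had 13.97 FPKM at the lowest, 31.7 at the median and 68.75 at the highest in short-term exposed tadpoles, against 6.98, 10.92, 7.92 and 20.42 FPKM in controls. All 6 exposed values lay above control replicates 1 to 3, and control replicate 4 lay inside the exposed range. The log2 difference was 1.59 with a standard error of 0.45 (limma adjusted p = 0.227; exact permutation p = 0.0286), and at 30 h the level was 13.14, 19.52 and 11.3 FPKM. The other 3 tested unigenes of the inflammatory list lay between -0.75 and -0.15.

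Outside the lists, other unigenes with an informative name whose groups did not overlap, or whose unadjusted p was under 0.01, were chosen after their values were seen, and none of them passed the adjusted threshold. The alpha-2B adrenergic receptor, a receptor for noradrenaline and adrenaline, had 1.29 FPKM at the lowest, 1.58 at the median and 2.22 at the highest in short-term exposed tadpoles, against 0.16, 0.95, 0.67 and 0.12 FPKM in controls (log2 difference 1.87, standard error 0.45, limma adjusted p = 0.123). Its groups did not overlap, which is why it was chosen, and the 30 h values were 2.16, 2.03 and 1.94 FPKM. A small GTPase named Ras-like without CAAX 1 had 0.73 to 3 FPKM in short-term exposed tadpoles, against 3.67 to 5.79 FPKM in controls (log2 difference -1.45, standard error 0.42, limma adjusted p = 0.249). The polycomb protein BMI-1, a chromatin repressor, had 0.69 to 2.25 FPKM in short-term exposed tadpoles, against 2.67 to 3.35 FPKM in controls (log2 difference -0.96, standard error 0.36, limma adjusted p = 0.456). Protocadherin-20 and plexin-A4, membrane proteins known from neurons, had differences of -1.57 and -1.77 with overlapping groups and limma adjusted p of 0.322 and 0.351.

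Liver and blood plasma transcripts showed mainly the spread between short-term exposed tadpoles. Albumin had 538 FPKM at the lowest, 885 at the median and 2492 at the highest in short-term exposed tadpoles, against 1283, 2176, 2057 and 852 FPKM in controls (log2 difference -0.59, standard error 0.46, limma adjusted p = 0.787). A pentraxin, a plasma pattern-recognition protein, had 10.91 and 16.06 FPKM in replicates 3 and 4 and 344 to 1133 FPKM in the other 4, against 944, 611, 679 and 326 FPKM in controls. Its log2 difference of -1.73 (limma adjusted p = 0.741) was 0.15 without replicates 3 and 4. The fibrinogen alpha chain unigene Cluster-29057.100665, chosen after its values were seen, went the other way from these, with 0.66 FPKM at the lowest, 2.79 at the median and 7.07 at the highest in short-term exposed tadpoles, against 0.52, 0.38, 0.78 and 0.31 FPKM in controls (log2 difference 2.07, standard error 0.57, limma adjusted p = 0.207), and 20.37, 10.46 and 11.63 FPKM after 30 h. Another fibrinogen alpha chain unigene, Cluster-29057.103489, was scattered between 0.07 and 5 FPKM in short-term exposed tadpoles, against 0.28 to 1.19 FPKM in controls (log2 difference 0.59, standard error 0.89, limma adjusted p = 0.92). Of the 6 tested unigenes of the detoxification list, 3 lay above 0 and 3 below. Its most abundant members lay below, where cytochrome P450 2A6 had 6.5 to 41.64 FPKM in short-term exposed tadpoles, against 34.39 to 67.75 FPKM in controls (log2 difference -1.32, limma adjusted p = 0.656), and a sulfotransferase 2B1 had 5.95 to 94.56 FPKM, against 22.35 to 124.5 FPKM in controls. In bulk tissue, fewer liver cells in the tube and less of a transcript per cell cannot be told apart.

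The remaining lists had medians between -0.47 and 0.28 and no call. Cathepsin L and cathepsin B, abundant lysosomal proteases, had medians of 164.5 and 97.1 FPKM in short-term exposed tadpoles, with log2 differences of 0.13 and 0.20, both with a standard error of 0.24, against control values of 134.96 to 162.97 and 70.6 to 108.43 FPKM. The 8 tested lysosome unigenes had a median difference of 0.12, the 6 of leukocytes 0.28, the 9 of skeletal muscle -0.11, the 3 of epidermis 0.16 and the 10 of RNA processing and ribosome 0.15. The 8 tested hepatocyte unigenes had a median of -0.13, the 6 of detoxification -0.15 and the 3 of fatty acid metabolism -0.11. Of 56 named unigenes of the MAPK and PI3K-Akt core, the 5 tested had a median of -0.39. The 5 mobile elements had -0.47, the 2 chaperones -0.40 and the erythropoietin receptor, the one erythrocyte unigene tested, -0.03. Without short-term exposed replicate 1 the median of the detoxification list turned to 0.09, and those of the MAPK and PI3K-Akt core, the chaperones, the leukocytes, the melanin list, the epidermis, the erythropoietin receptor and the photolyase-like unigene were -0.13, -0.23, 0.17, 0.26, 0.24, -0.09 and -0.04, while the other list medians kept their sign and moved by less than 1.5 times. The summed level of the 20 leukocyte unigenes was 17.7 to 41.6 FPKM in short-term exposed tadpoles, against 15.5 to 26.2 FPKM in controls. The 4 lens and retina unigenes summed to 0.94 to 2.59 FPKM in short-term exposed tadpoles, against 0.06 to 2.68 FPKM in controls, so the eye markers held were near 0 in both groups although eyeballs were collected, and none of the 4 was above 0 in every library.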

How the data were processed

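RNA-seq of 13 tadpoles was used, with groups and replicate numbers taken from the sample labels. The authors cleaned the reads of adapters, undetermined bases and poor quality, built the unigenes from them with Trinity without a genome and deposited FPKM values with 2 decimals. Neither the aligner nor the way of counting is given in the sources used here. Paper and labels name different HiSeq models. FPKM keeps no counts, so depth behind a value is unknown and no counting interval is given. An exact 0 need not mean that a unigene had no reads. FPKM summed to 983190 to 1070969 per library.

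Unigenes above 0 in all 13 libraries were tested on log2(FPKM + 0.1) with limma 3.58.1 in R 4.3.3 (3 group means, mean-variance trend, moderated test, two-sided, Benjamini-Hochberg over 38864 unigenes, adjusted p under 0.05). Single unigenes were also tested by exact permutation over the 210 choices of 6 of 10 libraries. Fits were tested on simulated data. Tables used pandas 2.3.3 and numpy 2.4.6 under Python 3.11.15, and plots matplotlib 3.10.9.

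Names came from the study's lists of unigenes used in its analysis and figures, and from the part held of its annotation table, 1595 in all. Those lists were chosen at least in part on these samples, and also hold unigenes that the study reported as not upregulated. The members and lists were chosen with earlier results of these data known, so list results are counts and medians. Named were the 2 unigenes with the largest difference in each direction, called unigenes with a name, list members whose groups did not overlap and up to 4 examples a list of the highest level. No called unigene had an informative name. Alternatives were other pseudocounts, filters, scaling, weights, covariates, the replicate number as a block and leaving out libraries, of which 3 sets of left-out libraries were chosen after seeing the data. Sequences of unigenes were not used here.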

Additional observations from a re-analysis of the deposited data

Results flagged for a closer look

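Of 66 groups of values checked for a sample far from the others, 3 had one, near the share of about 1 in 20 that chance gives. Control replicate 4 was far above the other controls in the unnamed unigene with the largest upward difference, Cluster-29057.40598, at 4.92 FPKM, where the others had 0.81 to 0.91 FPKM. Short-term exposed replicate 5 was far below the rest of its group in the number of unigenes above 0, at 91929. Short-term exposed replicate 1 was far below its group, at -2.98, in the mean log2 level of unigenes named by a mammalian best hit, and lay inside the range of the control libraries. Counts without each of these libraries are given above, and their part in the results was not tested further.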

How the results depend on the processing

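With 1 library left out at a time, 30 to 118 unigenes were higher and 9 to 44 lower, beside 83 and 28 with all. Only the 10 libraries compared gave 53 higher and 12 lower. FPKM of at least 1 in every library gave 45 and 2, and no filter 47 and 49. Keeping unigenes with 0.3 FPKM or more in 3 or more libraries gave 60 higher and 59 lower. A pseudocount of 0.01 gave 16 lower. Median-of-ratios scaling gave 136 and 47, array weights 161 and 46. Covariates gave 186 and 113 (hepatocyte list) and 134 and 68 (skeletal muscle list), in each case with all 83 and 28 among them. The level of unigenes with mammalian best hits differed between the groups in all but short-term exposed replicate 1. As a covariate it gave 2 and 9, of which 1 and 2 were among the 83 and 28. Untransformed FPKM with an unmoderated least-squares test gave 0 higher and 5 lower, with 1120 and 1688 at an unadjusted p under 0.05. Leaving out short-term exposed replicates 3 and 4 gave 33 and 17, replicates 1 and 5 gave 132 and 16, and replicates 1, 3 and 4 gave 31 and 10. The other alternatives stayed within 1.5 times of the counts, and the causes of the moves were not tested.

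The replicate number as a block gave 42 higher and 12 lower. The numbers name different tadpoles, and the deviations of same-numbered short-term exposed and control libraries had correlations of -0.13, 0.05, -0.21 and 0.11, so the numbers did not pair them.

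Direction turned for the photolyase-like unigene (range -0.25 without control replicate 2 to 0.016 without short-term exposed replicate 5 when 1 library was left out, 0.060 with the block, 0.18 without replicates 1 and 5), dihydropteridine reductase (0.074), albumin (0.21) and the sulfotransferase (0.26) without replicates 1, 3 and 4, and the pentraxin (0.64 with the mammalian-hit covariate, 0.15 without replicates 3 and 4, 0.015 without replicates 1, 3 and 4). None of these was called in any fit. SOCS3 passed the threshold with the hepatocyte covariate (limma adjusted p = 0.0241) and the fibrinogen unigene Cluster-29057.100665 with array weights (limma adjusted p = 0.0414), out of ranges to 0.61 and 0.471.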

Other observations

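Unigenes at 0 in a group were outside the comparison. Of all 249088 unigenes, 89 were above 0 in all 6 short-term exposed libraries and listed at 0 in all 4 control libraries. Among these 89, 19 averaged at least 1 FPKM after 4 h, up to 39.8 FPKM. In the other direction, 218 unigenes were listed at 0 in all 6 short-term exposed libraries and above 0 in all 4 control libraries, of which 35 averaged at least 1 FPKM in the dark, up to 4.76 FPKM.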
